A study of Zea mays with 6 samples.

Results

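RNA-seq libraries of maize (Zea mays) anthers were compared between zmrpn1 plants, labelled as a ZmRPN1 knockout with a Mutator transposon and the genotype code aa, and wild-type (WT) plants with the genotype code AA. Each genotype had 3 libraries, all from anthers labelled S3 to S5, and the series title ties the gene to pollen number. The rows described here are those of the mitochondrial genome whose identifiers start with ZeamMp, 175 of the 46430 rows of the count table. The rows of mitochondrial ribosomal and transfer RNA carry other prefixes and are not among them. A RefSeq gene table (assembly name Zm-B73-REFERENCE-NAM-5.0) gave a symbol for all 175. It lists 157 of them as protein-coding and 18 as pseudogenes, so the set is not made up of protein-coding genes alone. By symbol, 30 rows were standard mitochondrial protein genes, 128 were open reading frames (orf symbols) and 17 had symbols ending in -ct, such as rbcL-ct, after plastid genes or reading frames. Rows for nad1, nad2 and nad5, other complex I genes, were not analysed here.

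Plant mitochondria keep a small genome that encodes part of the respiratory chain, part of the ATP synthase, some proteins of their own ribosome and a cytochrome c maturation pathway. The other subunits of these complexes are made from nuclear genes. Developing anthers, above all the tapetum, are known for a high energy demand on their mitochondria. Chimeric mitochondrial reading frames are a well-known source of cytoplasmic male sterility in maize. Large plant mitochondrial genomes also carry many predicted reading frames without an assigned function, and stretches of DNA copied from the plastid.

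Library totals ran from 18724037 to 26000578 counts in zmrpn1 and from 16203290 to 29515176 counts in WT. The labels do not say whether libraries of a genotype came from separate plants, so tests measure the spread between these libraries, which may be technical. They name a single mutant genotype and do not say how closely the WT plants were related to it. The labels give no identifier for ZmRPN1, and nuclear identifiers were not paired with names. The targeted gene and anther markers were therefore not checked. Levels are given as CPM, the count divided by the library total and scaled to 1000000. CPM is not divided by gene length, because no coding lengths were used here. An order of CPM values says which rows took most counts, not which transcripts had most molecules.

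Mitochondrial ZeamMp rows took 0.00976% of all counts in these anthers. Summed over the 175 rows, the zmrpn1 libraries held 95.3, 89.7 and 97.4 CPM, against 98.2, 100.4 and 103.1 CPM in the WT libraries. The means were 94.1 ± 3.97 CPM in zmrpn1 and 100.6 ± 2.48 CPM in WT (SD, n = 3 each), and the highest zmrpn1 library lay just below the lowest WT library. Set against mitochondrial ribosomal RNA, which took 533 ± 17.2 CPM in zmrpn1 and 618 ± 27.7 CPM in WT, the order was the opposite. The rows held 180, 163 and 188 counts per 1000 ribosomal RNA counts in zmrpn1, against 152, 164 and 174 in WT, and the groups overlapped. Mitochondrial DNA copies are common in the maize nuclear genome. The sources used here do not say how reads matching several places were counted, so all levels below are uncertain to that extent.

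Few rows carried most of the counts. Of the 175 rows, 62 had 0 counts in every library, which allows up to 0.0228 CPM (3 counts over all libraries, counting error only). Another 56 had 1 to 9 counts over the 6 libraries, and 42 had a count in every library. The 10 highest rows held 67.1% ± 1.63 of the ZeamMp counts in zmrpn1 and 65.4% ± 1.00 in WT (SD, n = 3 each). The 3 highest rows, orf105-c, rps12 and orf101-a, were the same in all 6 libraries. The 5 highest by counts over all libraries were also the 5 highest in 4 libraries, and the 10 highest in 3 libraries. By counts over all libraries, the 10 highest comprised 6 open reading frames and 4 standard genes, which were rps12, mat-r, rpl16 and rps2B. Even the highest ZeamMp row stood below 12268 other rows of the table by mean CPM.

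The row with most counts in every library was orf105-c (ZeamMp073), a predicted reading frame. It had 16.1, 15.3 and 18.8 CPM in zmrpn1, against 18.1, 15.6 and 14.7 CPM in WT. It held 17.8% ± 1.35 of the ZeamMp counts in zmrpn1 and 16.0% ± 2.15 in WT, and the groups overlapped. Its log2 change, zmrpn1 over WT, was 0.06 with a standard error of 0.10 (edgeR quasi-likelihood test, adjusted p = 0.804). The 95% interval of that change ran from -0.14 to 0.25, the narrowest among the tested ZeamMp rows, since 2164 counts lay behind it. The spread of orf105-c between libraries of a genotype was still 4.62 times the variance that counting alone gives.

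The second row by counts was rps12 (ZeamMp092), which encodes protein S12 of the small ribosomal subunit. It had 8.71, 7.64 and 9.85 CPM in zmrpn1, against 7.63, 9.75 and 9.59 CPM in WT. The third, orf101-a (ZeamMp044), had 9.24, 8.12 and 8.54 CPM in zmrpn1, against 8.02, 7.84 and 8.20 CPM in WT. Both overlapped between genotypes, with log2 changes of -0.05 (SE 0.12) for rps12 and 0.09 (SE 0.11) for orf101-a. The next rows were orf179 at 5.76 ± 0.646 CPM in zmrpn1 and 6.65 ± 0.443 CPM in WT, and orf140-b at 4.80 ± 0.872 CPM in zmrpn1 and 5.97 ± 0.494 CPM in WT. The order of neighbours in this ranking was often within their spread: rps12 averaged 8.73 ± 1.11 CPM in zmrpn1 and 8.99 ± 1.18 CPM in WT, and orf101-a 8.63 ± 0.568 CPM in zmrpn1 and 8.02 ± 0.181 CPM in WT.

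**Figure D1:**
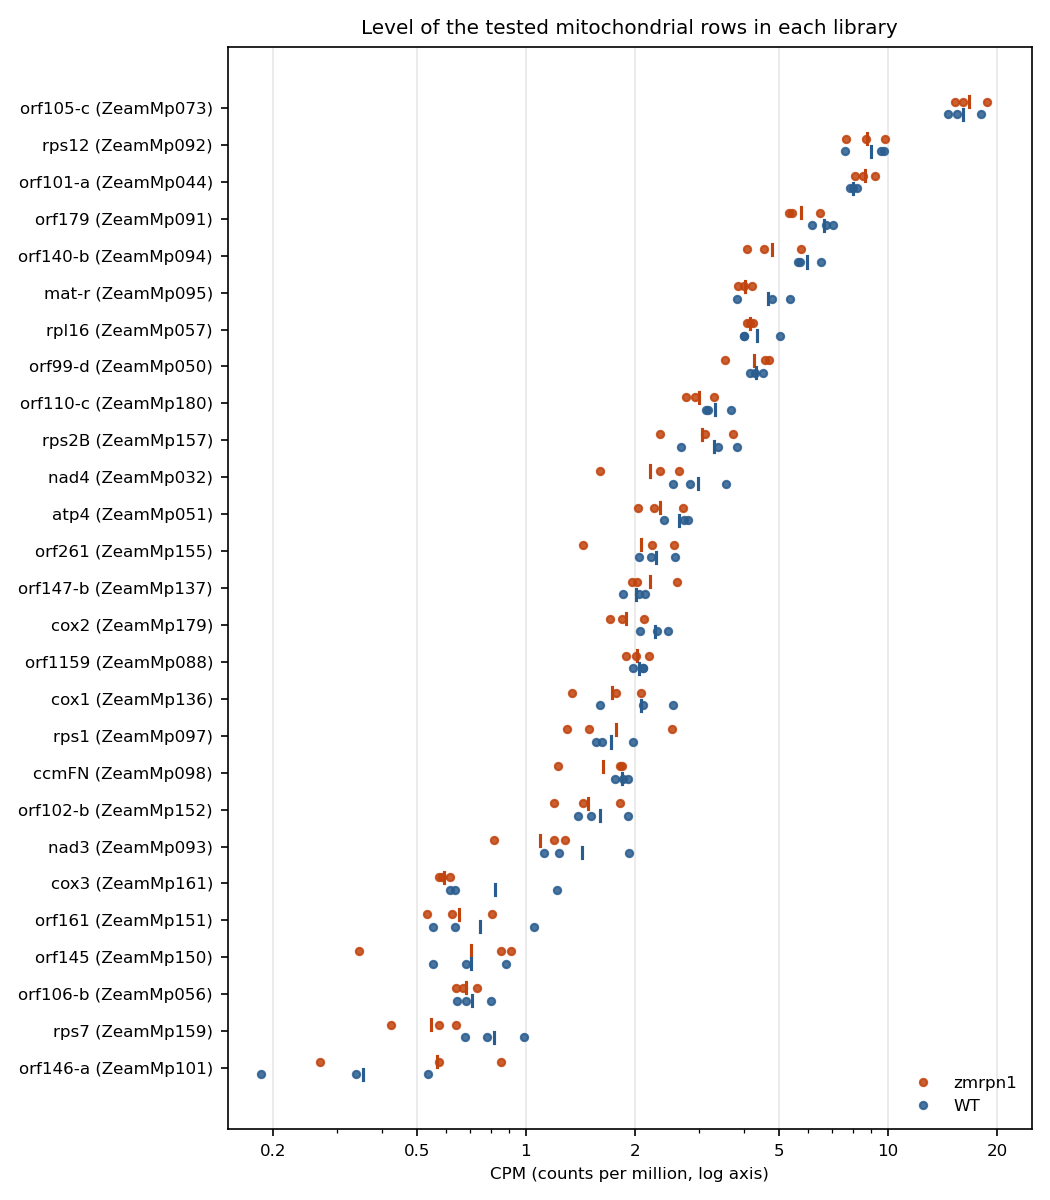
Level of the 27 tested ZeamMp rows in CPM (log axis), one dot per library and a bar at the mean of 3 libraries, zmrpn1 above WT in each row. Levels spread from 0.185 to 18.8 CPM, while the dots of the genotypes overlap in 25 of the 27 rows.

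Rows rich in counts often lay side by side on the mitochondrial genome. Of the 27 rows that passed the count filter, 21 lay directly beside another such row in the RefSeq order of ZeamMp rows, in 8 runs. Of the 148 rows that did not pass, 25 lay beside one that did. The rows orf105-c and orf101-a, among the highest by counts, had no such neighbour. The longest run was orf179, rps12, nad3, orf140-b and mat-r, whose 5 rows held 26.8% of all ZeamMp counts. Its summed mean level was 24.4 CPM in zmrpn1 and 27.7 CPM in WT. In 5 of the other 7 runs a standard gene stood beside a reading frame alone. Among them were orf99-d with atp4 (6.95% of the counts), orf106-b with rpl16 (5.13%), cox2 with orf110-c (5.38%) and cox1 with orf147-b (4.19%). Of the 27 rows, 10 overlapped another mitochondrial row in that annotation, such as rpl16 with rps3 and orf261 with rps2B. The RefSeq positions belong to Zm-B73-REFERENCE-NAM-5.0, while the submitters name the build B73 RefGen_v4. The positions used in counting may therefore differ. The sources used here do not say whether counting used strand, so counts of overlapping rows cannot be told apart.

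**Figure D2:**
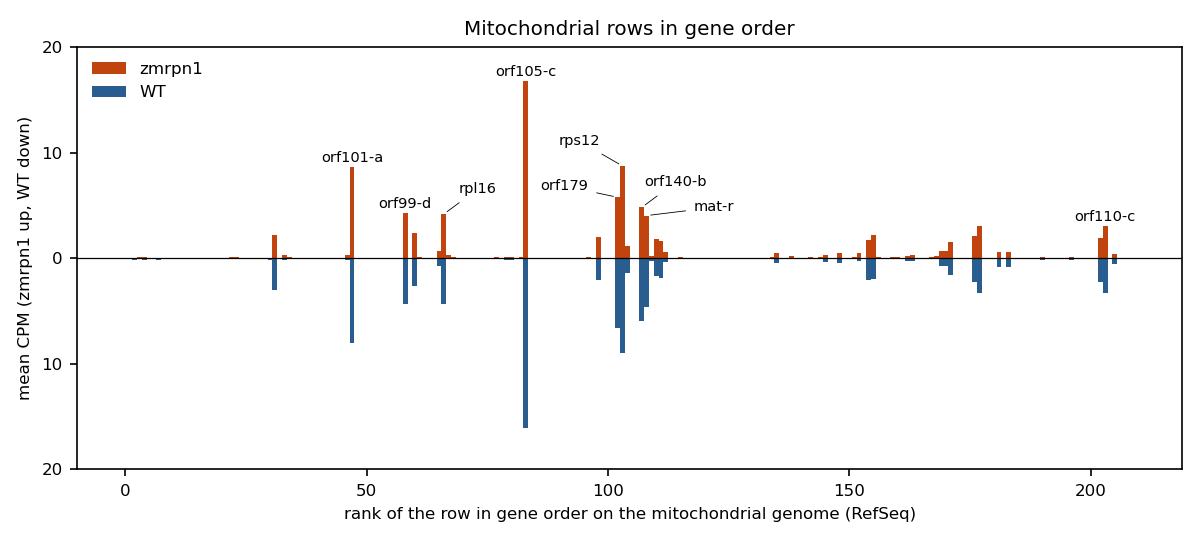
Mean CPM of the 175 ZeamMp rows along the RefSeq gene order of the mitochondrial genome, with zmrpn1 drawn upward and WT downward (3 libraries each). The bars of both genotypes stand at the same rows, with orf105-c alone and orf179, rps12, orf140-b and mat-r close together.

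The respiratory chain rows were few and uneven. Complex I, which oxidises NADH, had 6 rows here, of which nad4 and nad3 held nearly all the counts. The core subunit gene nad4 (ZeamMp032) had 1.6, 2.64 and 2.35 CPM in zmrpn1, against 2.54, 3.58 and 2.85 CPM in WT. The smaller subunit gene nad3 (ZeamMp093) had 1.28, 0.816 and 1.19 CPM in zmrpn1, against 1.12, 1.23 and 1.93 CPM in WT. The lowest nad4 library was zmrpn1 replicate 1 and the highest nad3 library was WT replicate 3, and both genes overlapped between genotypes. The log2 change was -0.43 (SE 0.21) for nad4 and -0.44 (SE 0.29) for nad3, and neither passed the test (edgeR adjusted p = 0.227 and 0.407). Without zmrpn1 replicate 1 the nad4 value was -0.26, and the nad3 value was -0.11 without WT replicate 3 and -0.27 without zmrpn1 replicate 2. The other complex I rows had 9 counts over the 6 libraries for nad7, 5 for nad9, 1 for nad6 and 0 for nad4L.

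Cytochrome c oxidase, or complex IV, was the only respiratory complex here with all its rows above the count filter. The catalytic subunit gene cox1 (ZeamMp136) had 2.08, 1.34 and 1.77 CPM in zmrpn1, against 2.1, 1.6 and 2.54 CPM in WT. The gene of the other redox subunit, cox2 (ZeamMp179), had 1.71, 2.11 and 1.85 CPM in zmrpn1, against 2.30, 2.47 and 2.07 CPM in WT. The third core subunit gene, cox3 (ZeamMp161), had 0.587, 0.576 and 0.615 CPM in zmrpn1, against 0.635, 0.617 and 1.22 CPM in WT. The genotypes overlapped for cox1 and cox2. For cox3 they did not, but the highest zmrpn1 and the lowest WT library were nearly level. The log2 changes were -0.32 (SE 0.24) for cox1, -0.26 (SE 0.22) for cox2 and -0.55 (SE 0.37) for cox3 (edgeR adjusted p = 0.481, 0.537 and 0.399). The cox3 value rested on WT replicate 3, which held 36 of the 59 WT counts, and it was -0.09 without that library. The cox1 value was -0.13 without WT replicate 3 and -0.17 without zmrpn1 replicate 2.

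Among the rows for the ATP synthase, atp4 (ZeamMp051), a subunit of its stator, was the only one above the filter. It had 2.72, 2.26 and 2.04 CPM in zmrpn1, against 2.74, 2.41 and 2.81 CPM in WT, with a log2 change of -0.22 (SE 0.21, edgeR adjusted p = 0.593), or -0.12 without zmrpn1 replicate 3. The proton channel subunit gene atp6 had 6, 9 and 7 counts in zmrpn1, against 7, 8 and 27 counts in WT. Of its 42 WT counts, 27 lay in WT replicate 3, the library with the highest total. In CPM, atp6 had 0.320, 0.432 and 0.269 in zmrpn1, against 0.342, 0.494 and 0.915 in WT. Genes for core parts of the same machinery were at or near 0 in both genotypes: atp9 had 6 counts over all libraries, atp1-a2 had 3, atp1-a1 had 2, cob (cytochrome b of complex III) had 1 and atp8 had 0. Every respiring cell uses these proteins, so such values say only that the rows are listed at or near 0. The pair atp1-a1 and atp1-a2 are copies of a single gene, between which reads may have been split.

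Summed over the 16 rows of the respiratory chain and ATP synthase, the zmrpn1 libraries had 10.5, 10.3 and 10.3 CPM, against 12.3, 12.5 and 14.4 CPM in the WT libraries. The means were 10.4 ± 0.0881 CPM in zmrpn1 and 13.1 ± 1.18 CPM in WT (SD, n = 3 each), and every zmrpn1 library lay below every WT library. With 1559 counts over all libraries behind these sums, counting alone gives a wider spread than the zmrpn1 SD. That SD is therefore no measure of how far zmrpn1 libraries vary. The sum over these 16 rows was not among the results planned beforehand. Mitochondrial ribosomal RNA was lower in zmrpn1 as well, at 518 to 552 CPM in zmrpn1 and 593 to 648 CPM in WT. The part of ribosomal RNA and of library differences in the respiratory sum was not tested. All 6 tested members had log2 values below 0 (median -0.37), against a median of 0.00124 over all 23477 tested rows. Without WT replicate 3 all 6 were still below 0, and their median was -0.15. None of the 6 passed the test on its own.

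Genes for cytochrome c maturation, which attaches haem to c-type cytochromes, were weakly counted. The haem lyase subunit gene ccmFN (ZeamMp098) had 1.23, 1.82 and 1.85 CPM in zmrpn1, against 1.86, 1.91 and 1.76 CPM in WT. The lowest value was that of zmrpn1 replicate 1, the groups overlapped, and the log2 change was -0.16 (SE 0.25, edgeR adjusted p = 0.769). Without zmrpn1 replicate 1 it was -0.00599. Over all libraries ccmFC had 33 counts, ccmC had 17 and ccmB had 16. The maturase gene mat-r (ZeamMp095), whose protein acts in the splicing of mitochondrial introns, had 3.85, 4.23 and 4.0 CPM in zmrpn1, against 4.79, 3.83 and 5.35 CPM in WT. Its groups overlapped, with a log2 change of -0.24 (SE 0.16, edgeR adjusted p = 0.396), or -0.12 without WT replicate 3.

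**Figure D3:**
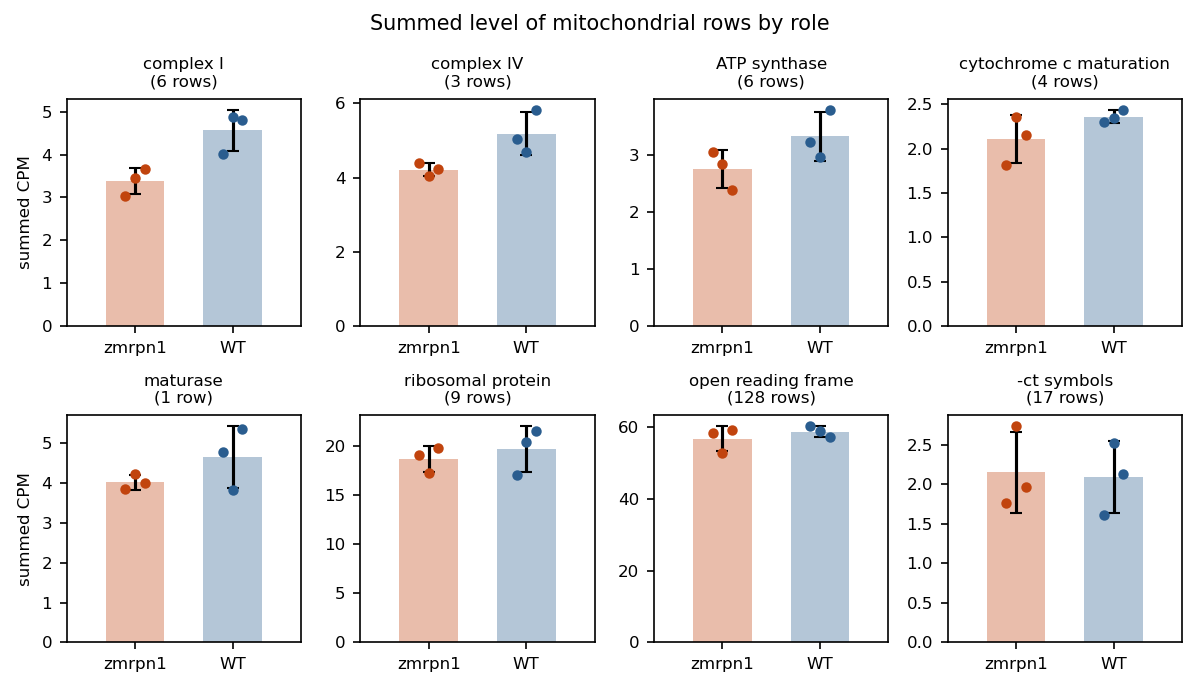
Summed CPM of the ZeamMp rows by role, with bars at the mean of 3 libraries, error bars of 1 SD and a dot per library, zmrpn1 left of WT. The sums for complex I and complex IV do not overlap between genotypes, and those for the other 6 roles do. Complex III is left out, since its row had 1 count.

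Ribosomal protein genes held 19.8% of the ZeamMp counts, and rps12 held 46.2% of theirs. Their sum was 18.7 ± 1.32 CPM in zmrpn1 and 19.7 ± 2.32 CPM in WT (SD, n = 3 each), and the groups overlapped. After rps12, the large-subunit gene rpl16 (ZeamMp057) had 4.17, 4.08 and 4.23 CPM in zmrpn1, against 4.01, 4.01 and 5.05 CPM in WT. The small-subunit gene rps2B averaged 3.07 ± 0.698 CPM in zmrpn1 and 3.30 ± 0.575 CPM in WT. For rps1 the zmrpn1 libraries had 1.5, 1.3 and 2.54 CPM and the WT libraries 1.56, 1.97 and 1.63 CPM. Its log2 value of 0.08 (SE 0.26) turned to -0.31 without zmrpn1 replicate 3, the library that stood apart.

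The small-subunit gene rps7 (ZeamMp159) had the lowest log2 value of the tested ZeamMp rows. It had 0.641, 0.576 and 0.423 CPM in zmrpn1, against 0.782, 0.987 and 0.678 CPM in WT, and the groups did not overlap. These levels stood for 11 to 12 counts a library in zmrpn1 and 16 to 20 in WT, and the log2 change of -0.57 (SE 0.38) did not pass the test (edgeR adjusted p = 0.392). Below the filter, rps3 had 5, 8 and 7 counts in zmrpn1, against 1, 2 and 4 counts in WT. In CPM these were 0.267, 0.384 and 0.269 in zmrpn1, against 0.0489, 0.123 and 0.136 in WT. The row rps3 overlaps rpl16, and the sources used here do not say how reads in an overlap were counted, so its few counts are uncertain. The row rps4 had 1, 1 and 0 counts in zmrpn1, against 1, 2 and 14 counts in WT, so that 14 of its 19 counts came from WT replicate 3. That library has the highest total, and its rps4 level was 0.474 CPM, against 0.0489 and 0.123 CPM in WT replicates 1 and 2. The remaining rows rps2A and rps13 had 15 and 2 counts over all libraries.

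Open reading frames together took more counts than the standard genes, with 59.1% of all ZeamMp counts. Their sum was 56.8 ± 3.44 CPM in zmrpn1 and 58.7 ± 1.45 CPM in WT (SD, n = 3 each), and the groups overlapped. The standard genes summed to 35.2 ± 1.06 CPM in zmrpn1 and 39.8 ± 3.70 CPM in WT. The groups did not overlap but nearly met, at 36.3 CPM in the highest zmrpn1 library and 36.4 CPM in the lowest WT library, and WT replicate 3 stood highest at 43.7 CPM. Reading frames had 1.66, 1.55 and 1.63 counts per count of a standard gene in zmrpn1, against 1.65, 1.5 and 1.31 in WT. The lowest of these ratios was that of WT replicate 3, and the groups overlapped. Of the 128 reading frames, 14 passed the filter and 57 had 0 counts in every library.

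Among the reading frames, orf140-b (ZeamMp094) was the only one of the 27 tested ZeamMp rows with an unadjusted edgeR p under 0.05. DESeq2 and the fit without WT replicate 2 gave 0 rows with an unadjusted p under 0.05. The replicate block and the fit without WT replicate 1 gave 2, and no filter on low counts gave 5 of 113. The orf140-b row had 5.77, 4.08 and 4.54 CPM in zmrpn1, against 5.72, 6.54 and 5.66 CPM in WT. The groups overlapped through zmrpn1 replicate 1. The log2 change was -0.33 (SE 0.15), and its adjusted p of 0.169 (edgeR) did not pass the threshold. Over the alternative fits the adjusted p of this row ran from 0.0629 to 0.447. The highest log2 value was that of orf146-a (ZeamMp101), with 16, 12 and 7 counts in zmrpn1 and 11, 3 and 10 counts in WT. In CPM these were 0.855, 0.576 and 0.269 in zmrpn1, against 0.538, 0.185 and 0.339 in WT. The log2 value of orf146-a was 0.56 (SE 0.48, edgeR adjusted p = 0.542), and 0.17 without zmrpn1 replicate 1. The remaining reading frames above the filter had log2 values from -0.24 for orf161 (ZeamMp151) to 0.12 for orf147-b. One of them, orf261, is listed by RefSeq as a pseudogene and averaged 2.08 ± 0.577 CPM in zmrpn1 and 2.28 ± 0.266 CPM in WT. The row with the highest number in its symbol, orf1159, averaged 2.03 ± 0.153 CPM in zmrpn1 and 2.06 ± 0.073 CPM in WT.

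The rows with -ct symbols took 2.15 ± 0.515 CPM in zmrpn1 and 2.09 ± 0.460 CPM in WT (SD, n = 3 each), over 17 rows of which 0 passed the filter. This class was formed after the symbols were seen. The plan would have placed its rows among ribosomal proteins or open reading frames, whose sums above leave them out. The highest -ct rows were rpl2-ct with 62 counts over all libraries, rps7-ct with 57, rbcL-ct with 50 and rps19-ct with 44. Plastid rows of the same gene names had 347 counts for rpl2, 160 for rps7, 1 for rbcL and 28 for rps19. The mitochondrial rbcL-ct row thus had more counts than the plastid rbcL gene, which encodes the large subunit of Rubisco. Reads from near-identical copies cannot be told apart, so the genome of origin of these counts is uncertain. Rows with paired symbols were also low. Of 22 rows whose symbols form 11 pairs that differ in a last digit, such as orf115-a1 and orf115-a2, 16 had 0 counts (72.7%) and the highest had 7. Of the other 153 rows, 46 had 0 counts (30.1%).

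No ZeamMp row differed between zmrpn1 and WT past the threshold. With edgeR's quasi-likelihood test on 3 zmrpn1 and 3 WT libraries, 0 of the 27 rows tested reached an adjusted p under 0.05, where 12.4% of all 23477 tested rows did. At an unadjusted p under 0.05 edgeR gave 1 of 27, against 23.4% of all tested rows. DESeq2 and limma-voom likewise called 0 of 27, against 9.79% and 12.0% of all rows, and gave 0 and 1 at an unadjusted p under 0.05. These rows are counted less deeply than most: their median level was 2.11 CPM, against 17.9 CPM over all tested rows, and their median standard error 0.22 log2 units, against 0.0877. Over the 27 rows the standard error ran from 0.10 to 0.48, so that small changes were not detectable at this depth in the rows with few counts. The spread between libraries of a genotype was a median of 1.36 times that of counting alone.

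Most of the tested rows had values below 0 all the same. Negative log2 values stood in 22 of the 27 (81.5%), against 49.6% of all tested rows, and the median was -0.16. The 27 rows come from the same libraries and may vary together, so their signs are not separate pieces of evidence. The values lay within 1 standard error of 0 in 15 of the 27. Among standard genes 12 of 13 were negative, with a median of -0.24 and rps1 as the exception, and among reading frames 10 of 14 were, with a median of -0.08. Without WT replicate 3, 10 of the 13 standard genes were negative with a median of -0.12, and 9 of the 14 reading frames with a median of -0.0432. The reading-frame median was -0.0310 without WT replicate 2 and -0.0339 without zmrpn1 replicate 2. Without WT replicate 3 the median over the 27 rows was -0.09, with 19 negative, and without WT replicate 2 it was -0.16 with 18 negative. In 2 rows, cox3 and rps7, the 3 zmrpn1 libraries lay below the 3 WT libraries on TMM-scaled CPM, where 13.2% of all tested rows did so. In 0 rows did they lie above, where 13.8% of all rows did. The count filter passed 24 of the 27 rows in every library. Of the others, rps7 and orf145 passed in 2 zmrpn1 and 3 WT libraries, and orf146-a in 2 zmrpn1 libraries and 1 WT library.

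**Figure D4:**
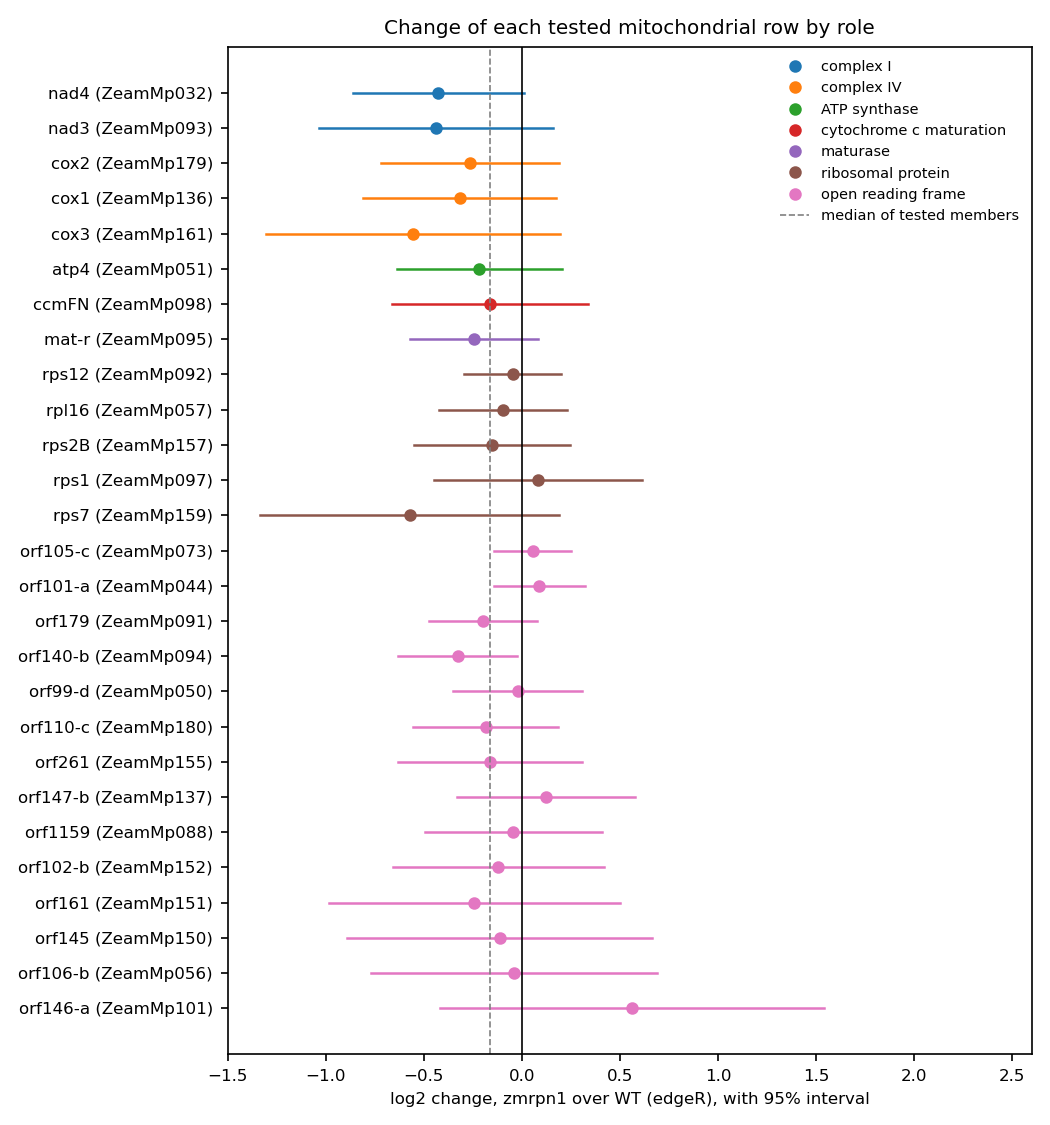
Log2 change (zmrpn1 over WT, edgeR) of the 27 tested ZeamMp rows, grouped by role and ordered by counts, with 95% intervals. All intervals but that of orf140-b include 0, and the dashed line marks the median of -0.16.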

How the data were processed

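The authors deposited whole-number counts per gene for 6 anther libraries, not normalized. Per the submitters' processing notes, StringTie 1.3.6, featureCounts 1.6.4, HISAT2 2.2.1, Trimmomatic 0.39 and DESeq2 were used with the build B73 RefGen_v4. Settings, the RNA selection and the treatment of multiply matching reads are not given in the sources used here, and each could move the level of mitochondrial rows. No row counted unassigned reads.

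ZeamMp rows and their lists were chosen with earlier results of these data known. All rows were fitted together with edgeR 4.0.16 in R 4.3.3 (filterByExpr with minimum count 10, TMM scaling, robust quasi-likelihood test, no replicate block), with Benjamini-Hochberg adjustment over 23477 rows. Standard errors are the log2 change over the square root of F. Every tested row was reported by name or within a range. The script was tested on simulated data. Alternatives were other scalings, DESeq2 1.42.0, limma-voom (limma 3.58.1), other filters, the replicate block and each library left out. RefSeq gave symbols, the protein-coding or pseudogene listing, and the start and end positions behind gene order and overlaps. No coding lengths were used.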

Additional observations from a re-analysis of the deposited data

How the results depend on the processing

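In all 13 alternatives 0 ZeamMp rows were called. With no filter on low counts 75 of 113 rows were below 0, and rps4 came closest (log2 change -2.77, edgeR adjusted p = 0.0777). Leaving out 1 library gave 18 to 22 rows below 0 and medians of -0.20 to -0.09. The summed CPM, a log2 ratio of -0.10 (zmrpn1 over WT), was -0.18 for standard genes, -0.12 to -0.06 without 1 library, and turned to 0.12 per 1000 ribosomal RNA counts. Among standard genes alone rps12 held 24.7% of counts in zmrpn1 and 22.6% in WT, by construction. With the replicate block 0 rows were called, 22 were below 0 and the median was -0.16. Between libraries of the same replicate number, correlations of deviations ran from -0.0374 to 0.0306. Such values cannot settle whether the libraries were paired. The cause of the changes between settings was not tested.

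Of the 27 rows, 14 kept their direction in every alternative that tested them. Of these 14, cox3, rps7 and orf146-a were not tested at 1 CPM in 3 libraries. The other 13 changed sign in at least 1, only where a library was left out. Lowest and highest values without 1 library were -0.0490 to 0.15 for orf105-c, -0.16 to 0.0408 for rps12, -0.15 to 0.0376 for rpl16, -0.0847 to 0.0939 for orf99-d, -0.31 to 0.0194 for rps2B, -0.31 to 0.0354 for orf261, -0.0386 to 0.20 for orf147-b, -0.0926 to 0.00726 for orf1159, -0.31 to 0.27 for rps1, -0.27 to 0.0253 for orf102-b, -0.45 to 0.14 for orf161, -0.37 to 0.26 for orf145 and -0.12 to 0.0399 for orf106-b. The level per coding length was not run, since no protein or coding lengths were used here.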
